A study of Mus musculus with 12 samples.

Results

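The miR-34 family comprised 3 of the 650 miRNA names on the array, mmu-miR-34a, mmu-miR-34b-5p and mmu-miR-34c, picked by name and written below without the species prefix. All 3 were among the 145 mouse miRNAs bright enough to be tested. They were singled out with 6 of the 11 comparisons below already known, namely tunicamycin against untreated cells in KO at 24 h and in WT at both times, how far the KO response exceeded that of WT at both times, and untreated KO against untreated WT. The other 5 are sums or differences of those 6 on the same arrays. So all values of the members are a description and carry no test, and where a member is said to be past limma's threshold (adjusted p under 0.05), that describes the fit and is no evidence for the family.

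The samples were mouse embryonic fibroblasts of the C57BL/6 background. The groups were KO cells, which lack the ER stress mediator ATF4, untreated or after 12 h or 24 h in 2 ug/mL tunicamycin, and WT cells, untreated or after the same 2 treatments. Tunicamycin blocks N-linked glycosylation and so causes stress of the endoplasmic reticulum (ER), and ATF4 is a transcription factor of the response to it. Each of the 6 groups had 2 arrays, which the series' design text calls independent experiments. Beyond that, the labels name no embryos, lines or litters, so p-values here speak only of the spread among these arrays, which may be technical.

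The miR-34 miRNAs are known as direct transcriptional targets of p53 in mouse and human cells. They bind messenger RNAs through a shared seed and lower proteins that drive the cell cycle and cell survival, such as cyclin-dependent kinases, MET and BCL2. miR-34a has a gene of its own and is the member found in most tissues, whereas miR-34b and miR-34c are cut from 1 shared primary transcript and are abundant in multiciliated cells and testis. The arrays measured neither p53 nor Atf4 mRNA, so they check neither the p53 part of the family's name nor the genotype labels.

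Mature sequences were at hand for 2 of the 3 members, from RefSeq on GRCm38.p6, and are shown because the seed is what defines the family. Bases 2 to 8, the seed, are in capitals.
miR-34a: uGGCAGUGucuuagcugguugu
miR-34b-5p: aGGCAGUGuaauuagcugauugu
miR-449a: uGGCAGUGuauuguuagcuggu
miR-449c: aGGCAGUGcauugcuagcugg
miR-34b-3p: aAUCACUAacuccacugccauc
The seed GGCAGUG stood in 4 of the 1679 mature mouse names of that table (0.238%), the first 4 shown. No entry there matched the array's name for miR-34c, and miR-449b is not among the 4. The count may thus miss carriers of the seed and does not mean that miR-34c lacks it. miR-34a and miR-34b-5p were identical at 19 of 23 aligned positions (82.6%), miR-34a and miR-449a at 17 of 23 (73.9%). miR-34b-3p, from the other arm of the miR-34b hairpin, has another seed and is shown because it is the only relative of the family that any array measured.

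The mature miR-34a lies on the + strand at chr4:150068473-150068494, inside the Mir34a hairpin at chr4:150068454-150068555. This hairpin overlapped no other annotated gene, with Gm13067 and Gpr157 as its neighbours. The mature miR-34b-5p lies on the - strand at chr9:51103610-51103632, inside the Mir34b hairpin at chr9:51103562-51103645. The Mir34c hairpin, at chr9:51103034-51103110, lies on the same strand with 451 bases between them. Both fell inside the spans of Hoatz and Btg4, so miR-34b-5p and miR-34c have a shared locus and miR-34a a separate one.

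Labelled miRNA was measured on Agilent 1-colour arrays. Each member had 2 probes of 10 spots each, and its signal was the sum of the 2 probe means. To scale it, the 75th percentile of 82 miRNAs seen on all 12 arrays was divided out per array. Values under 0.0328 (log2 of -4.93) were set to that floor before taking log2. This percentile ranged from 203.5 arbitrary units in KO at 24 h, replicate 1, to 791.2 in untreated KO, replicate 2, and 93 to 167 names per array were well above background. Of 9 fibroblast miRNAs 8 were seen, 7 of them on all arrays, with a summed scaled signal of 23.5 to 49.4, and miR-145 on none. Of 9 epithelial and 4 neural marker miRNAs 0 were seen, and of 7 of blood and endothelium, 4 of muscle and 7 of pluripotent cells 1 each, miR-126-3p, miR-206 and miR-294. Untreated arrays lay on slide 1 and tunicamycin arrays on slide 2, so slide and treatment cannot be told apart. On each slide the replicate 1 arrays and the replicate 2 arrays had a scan date each, shared by KO and WT.

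miR-34a, the member with its own gene, was well above background on all 12 arrays. In KO cells its scaled log2 signal was -3.15 and -3.02 untreated, -2.61 and -2.47 at 12 h and -2.35 and -0.95 at 24 h of tunicamycin. In WT cells it was -2.11 and -2.02 untreated, -3.19 and -3.65 at 12 h and -3.42 and -3.05 at 24 h. Both KO tunicamycin pairs lay above the untreated KO pair, and both WT tunicamycin pairs lay below the untreated WT pair. The genotypes also changed places: untreated KO arrays lay below untreated WT arrays, while at both times of tunicamycin the KO arrays lay above the WT arrays.

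miR-34b-5p, from the shared transcript on chromosome 9, was well above background on 7 of 12 arrays. In KO cells its scaled log2 signal was -4.47 and -4.39 untreated, -3.98 and -3.79 at 12 h and -3.70 and -2.71 at 24 h, the lower of the 24 h arrays not being well above background. In WT cells it was -3.56 and -3.50 untreated and at the floor of -4.93 on all 4 tunicamycin arrays. The pattern over the KO arrays and the order of the genotypes were those of miR-34a, but in WT the treated level lay below what the arrays could measure.

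miR-34c, the partner of miR-34b on that transcript, was well above background on 8 of 12 arrays. In KO cells its scaled log2 signal was -3.60 and -3.66 untreated, -3.22 and -3.25 at 12 h and -2.89 and -2.19 at 24 h. In WT cells it was -3.04 and -3.03 untreated and again at the floor on all 4 tunicamycin arrays. No KO array was at the floor for any member. The replicates of miR-34c lay close together in both untreated groups and in KO at 12 h, but not in KO at 24 h. In treated WT cells they were equal only through the floor. Without it they were -5.71 and -6.34 at 12 h and -5.41 and -6.57 at 24 h.

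**Figure D1:**
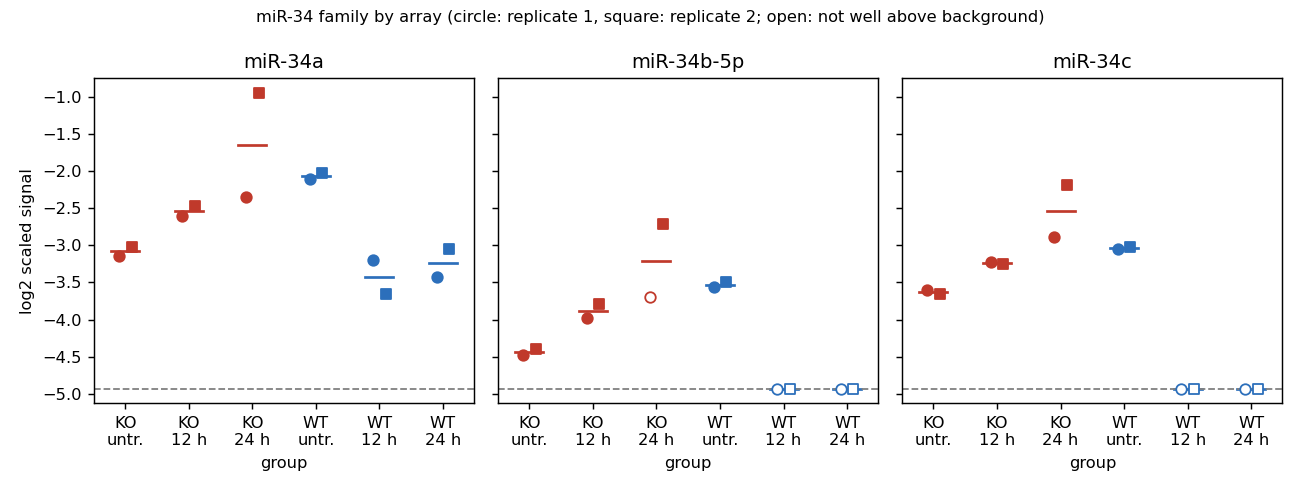
Scaled log2 signal of each miR-34 member (vertical axis) on every array, by group along the horizontal axis, KO in red and WT in blue. Circles are replicate 1, squares replicate 2, bars the mean of the 2 arrays, open symbols arrays not well above background and the dashed line the floor of -4.93. With this scaling KO arrays step up with time in all 3 panels (the 12 h step turns under 3 others and with normexp fitted on all spots). Treated WT arrays lie below untreated WT, at the floor for miR-34b-5p and miR-34c.

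The same 6 groups stood in nearly the same order for all 3 members. From high to low they were KO at 24 h, untreated WT, KO at 12 h, untreated KO and then the WT tunicamycin groups. For miR-34c no neighbours in this order overlapped, except the WT tunicamycin groups, which tied at the floor. For miR-34b-5p the KO 24 h arrays also overlapped untreated WT. For miR-34a they did so too, and untreated KO overlapped WT at 24 h, which overlapped WT at 12 h. Overlap was not counted over all tested miRNAs. The mean of miR-34a was -1.65 ± 0.99 in KO at 24 h against -3.24 ± 0.26 in WT at 24 h (SD, n = 2 each). The spread in KO at 24 h was the widest of any group for each member, with an SD of 0.70 for miR-34b-5p and 0.49 for miR-34c.

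The 2 KO arrays at 24 h differed most before scaling. The processed signal of miR-34a was 39.8 units in replicate 1 and 293.4 units in replicate 2, against 80.2 and 97.8 units in untreated KO. miR-34b-5p had 15.6 and 86.4 units at 24 h against 32.0 and 37.6 units in untreated KO, and miR-34c had 27.5 and 123.9 units against 58.3 and 62.8 units. Without scaling, replicate 1 thus lay below the untreated KO array of its number for all 3 members (miR-34a at -1.01 on the log2 scale) and replicate 2 above it (miR-34a at 1.58). Replicate 1 had the lowest 75th percentile of all arrays, and after division by it both replicates lay above untreated KO.

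**Figure D2:**
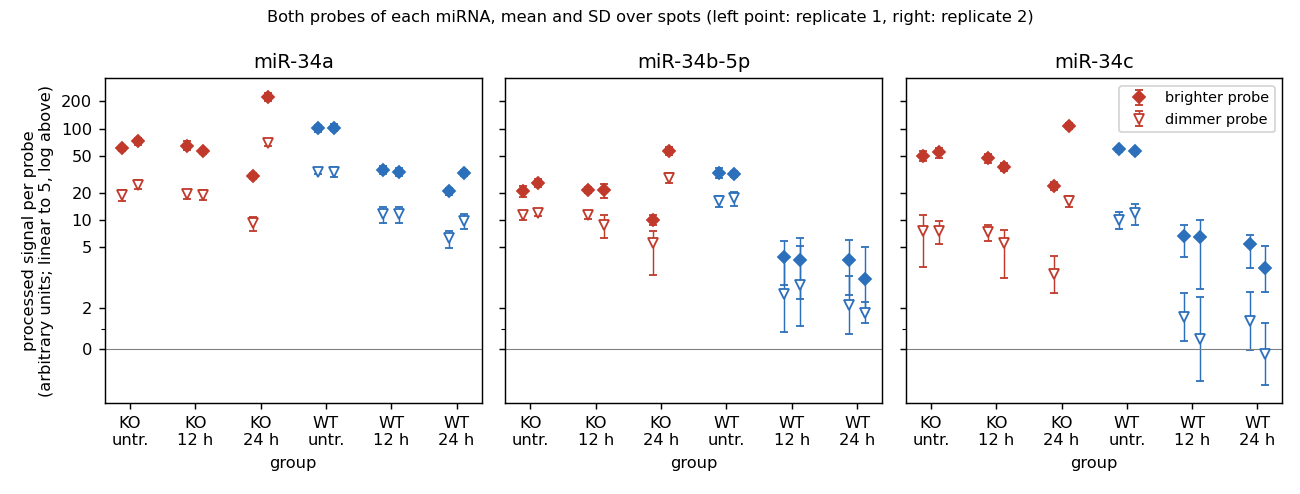
Processed signal of each of the 2 probes per member (vertical axis, arbitrary units, linear up to 5 and logarithmic above), before any scaling or floor, by group, KO in red and WT in blue. Points are means over the spots of one probe on one array, bars their SD, filled diamonds the brighter and open triangles the dimmer probe, replicate 1 left of replicate 2. Both probes of miR-34a move together. The dimmer probe was well above background on only 5 of 12 arrays for miR-34b-5p and 1 of 12 for miR-34c, so its course is uncertain there. For untreated KO minus WT the dimmer probe of miR-34c gave -0.92 and the brighter one -0.54. KO at 24 h, replicate 2, is the brightest array for each member.

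The 2 probes of miR-34a gave like differences. For untreated KO minus WT the brighter probe gave -1.0 and the dimmer one -1.05, and for KO at 12 h minus untreated KO they gave 0.55 and 0.53, both probes being well above background on all these arrays. No probe of miR-34b-5p or miR-34c was well above background in treated WT cells, so no difference per probe is given for them there. The dimmer probe of miR-34c was well above background on only 1 of 12 arrays and had a mean signal as low as -0.24 units. Over spots the median coefficient of variation was 9.53% for miR-34a, 11.3% for miR-34b-5p and 11.4% for miR-34c, counting probes over 10 units. No spot of any member was saturated.

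In KO cells the 12 h members lay a little above the untreated ones as scaled here. They lay below them under 3 other scalings and with a normexp background correction fitted on all spots. The 12 h difference from untreated KO was 0.54 ± 0.41 for miR-34a (SE, n = 2 per group), 0.55 ± 0.28 for miR-34b-5p and 0.39 ± 0.20 for miR-34c. Both replicate pairs of every member were higher as scaled, and 0 of 3 members were past limma's threshold, also at an unadjusted p under 0.05. Over all tested miRNAs 1.38% were called in this comparison, 21 had an unadjusted p under 0.05, and the median difference was 0.06. The 95% interval ran from -0.44 to 1.52 for miR-34a, from -0.11 to 1.20 for miR-34b-5p and from -0.07 to 0.85 for miR-34c. The 3 differences were also above 0 with median scaling, but below 0 after quantile normalization, after scaling to the 75th percentile of every miRNA and without scaling, where they were -0.15, -0.14 and -0.30. In those 3 settings the median of all tested miRNAs was -0.38, -0.61 and -0.58, each time below all 3 members. Normexp with an offset of 50 units gave -0.49, -0.87 and -0.69, against a median of -0.65 over all tested miRNAs. Without spots of outlying local background, an alternative chosen after seeing the data, it gave 0.50, 0.26 and 0.43, against 0.21. With either KO 24 h array left out of the fit, 2 members, miR-34b-5p and miR-34c, were past the threshold.

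At 24 h in KO cells, a comparison known when the family was chosen, the differences from untreated KO were 1.43 ± 0.41 for miR-34a, 1.23 ± 0.28 for miR-34b-5p and 1.09 ± 0.20 for miR-34c (SE), while the 145 tested miRNAs had a median of 0.19. No 24 h array of any member overlapped the untreated KO arrays. The share of all tested miRNAs without overlap was not counted, so nothing is read from this. By limma's threshold, another measure, 2.76% of all tested miRNAs were called there. Without replicate 1 the differences of the members were 2.13, 1.72 and 1.44, and without replicate 2 they were 0.73, 0.73 and 0.74. With normexp at an offset of 50 they were 0.18, -0.42 and -0.22, and without spots of outlying local background 1.16, 0.71 and 0.90. All tested miRNAs had medians of -0.42 and 0.44 under these 2 settings. Unscaled signals, averaged over the 2 replicates, differed by 0.29, 0.083 and -0.053, so that miR-34c turned without scaling. The median of all tested miRNAs was then -0.77.

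The later KO time lay above the earlier one as scaled. KO at 24 h exceeded KO at 12 h by 0.89 ± 0.41 for miR-34a, 0.68 ± 0.28 for miR-34b-5p and 0.70 ± 0.20 for miR-34c. Both scaled replicate pairs of each member were higher at 24 h, miR-34c by 0.34 in replicate 1 and by 1.06 in replicate 2, but without scaling replicate 1 was lower for all 3 members (miR-34a at -1.09). Here 0 of 3 members were past limma's threshold, 2 of them at an unadjusted p under 0.05, while 0% of all tested miRNAs were called and 10 had an unadjusted p under 0.05. Without KO 24 h replicate 1 all 3 were past it, at 1.59, 1.17 and 1.05, but without replicate 2 the differences were 0.18, 0.18 and 0.35 and none was.

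In WT cells tunicamycin went with lower members at both times, again in comparisons known beforehand. With normexp at an offset of 50 the 24 h members were higher instead, by 0.35, 0.82 and 0.66, where the median of all tested miRNAs was 0.70. Without spots of outlying local background that correction gave -0.12, 0.19 and 0.022, against a median of 0.29. At 12 h miR-34a was -1.36 ± 0.41 from untreated WT and at 24 h -1.17 ± 0.41. miR-34b-5p was at least 2.60-fold lower at 12 h and at least 1.87-fold lower at 24 h. For miR-34c these bounds were 3.67-fold and 2.63-fold. Each "at least" sets the bright group's mean against the lowest signal well above background on the dim arrays and leaves out the standard error. No treated WT array overlapped an untreated WT array for any member, but how many of all tested miRNAs did likewise was not counted. By limma's threshold, another measure, 31% of all tested miRNAs were called at 12 h and 15.2% at 24 h, with medians of -0.32 and -0.17. The processed signal of miR-34c, unscaled and with no floor, was 8.24 and 7.02 units at 12 h and 6.78 and 3.74 units at 24 h, against 70.0 and 68.2 units in untreated WT.

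Between the WT times the difference of miR-34a was smaller than its standard error. miR-34a at 24 h lay 0.18 ± 0.41 above 12 h (95% interval from -0.80 to 1.16), lower in replicate 1 and higher in replicate 2. By their probe means miR-34b-5p and miR-34c were not well above background at either time, so no difference is given for them. Agilent's total gene signal did detect miR-34c on WT at 12 h, replicate 1 (35.7 units). Over all tested miRNAs 0% were called and 5 had an unadjusted p under 0.05, none of them a member.

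Before any treatment, KO cells had less of each member than WT cells as reported here. Normexp at an offset of 50 put KO higher instead, by 0.34, 0.92 and 0.76 for miR-34a, miR-34b-5p and miR-34c. The median of all tested miRNAs then also lay above 0, at 0.67. Without spots of outlying local background, up to 172397 units on untreated KO replicate 1, that correction gave -0.65, -0.21 and -0.37, against a median of -0.29. As reported here the difference was -1.02 ± 0.41 for miR-34a, -0.90 ± 0.28 for miR-34b-5p and -0.60 ± 0.20 for miR-34c. No KO array overlapped a WT array, but the share of all tested miRNAs without overlap was not counted. This comparison was known beforehand, 32.4% of all tested miRNAs were called in it, and their median was -0.49, so miR-34c lay close to that median. Within each scan date the differences were nearly equal, as for miR-34a at -1.04 and -0.99. With quantile normalization miR-34c differed by -0.023 and the median of all tested miRNAs was -0.077, and in the authors' deposited table, which is not scaled between arrays, miR-34c differed by 0.070.

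Under tunicamycin the order of the genotypes was the opposite. At 12 h miR-34c was at least 3.18-fold higher in KO than in WT (log2 difference 1.69 ± 0.20) and miR-34b-5p at least 2.03-fold higher (1.04 ± 0.28). For both, the floor leaves an SD of 0 in treated WT cells, which lowers these standard errors and eases the calls built on them. miR-34a differed by 0.88 ± 0.41, with a 95% interval from -0.10 to 1.86. In the fit 2 of 3 members, miR-34b-5p and miR-34c, were past limma's threshold as higher, where 24.8% of all tested miRNAs were called either way and 14.5% as higher, with a median of 0.04. Nothing is read from that count, since the comparison is the sum of 2 that were known. Within the scan date of replicate 1 the differences were 0.59, 0.95 and 1.70 for miR-34a, miR-34b-5p and miR-34c, and within that of replicate 2 they were 1.18, 1.14 and 1.67.

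At 24 h miR-34c was at least 3.71-fold higher in KO than in WT (2.39 ± 0.20). For miR-34b-5p the bound was 2.34-fold (1.72 ± 0.28), and miR-34a was 3.0-fold higher (1.59 ± 0.41). Both bounds are on the mean of the 2 KO arrays, which replicate 2 lifts, and not on each array. For miR-34b-5p replicate 1 (-3.70, against -2.71 in replicate 2) was not well above background. All 3 were past the threshold as higher, where 15.2% of all tested miRNAs were called either way and 7.59% as higher, with a median of 0. Nothing is read from this count either. Within the scan date of replicate 1 the differences were 1.07, 1.23 and 2.04 for miR-34a, miR-34b-5p and miR-34c, and within that of replicate 2 they were 2.11, 2.22 and 2.74. In the scaled probe sums every KO array lay above every WT array for each member at both times. The share of all tested miRNAs for which this held was not counted.

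The sign of these genotype differences under tunicamycin held under the 4 other scalings, in which 12 h values ran from 0.56 to 1.73 and 24 h values from 1.09 to 2.32, but the fit's calls did not. All were lost at both times after quantile normalization, after scaling to the 75th percentile of every miRNA and without scaling. Of 19 other settings, miR-34c was past the threshold in 12 at each time, miR-34b-5p in 8 at 12 h and in 12 at 24 h, and miR-34a in 0 at 12 h and in 4 at 24 h. A background correction by normexp, with an offset of 50 units, turned miR-34b-5p to -0.32 and miR-34c to -0.13 at 24 h. The median of all tested miRNAs was then -0.46. Without spots of outlying local background that correction gave 0.31 and 0.51 there, against a median of -0.022, with no member past the threshold. Fitted from the 4 arrays of a comparison alone, 2 members were past it at 12 h and 0 at 24 h. With scan date, which pairs a KO with a WT array, as a fixed block, miR-34c was past it at 12 h, and miR-34b-5p and miR-34c at 24 h. The 12 h call of miR-34b-5p and the 24 h call of miR-34a were lost without any 1 array other than those of KO at 24 h, and the 24 h call of miR-34b-5p with either WT 24 h array left out. With either KO 24 h array left out miR-34a was past it at 12 h.

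**Figure D3:**
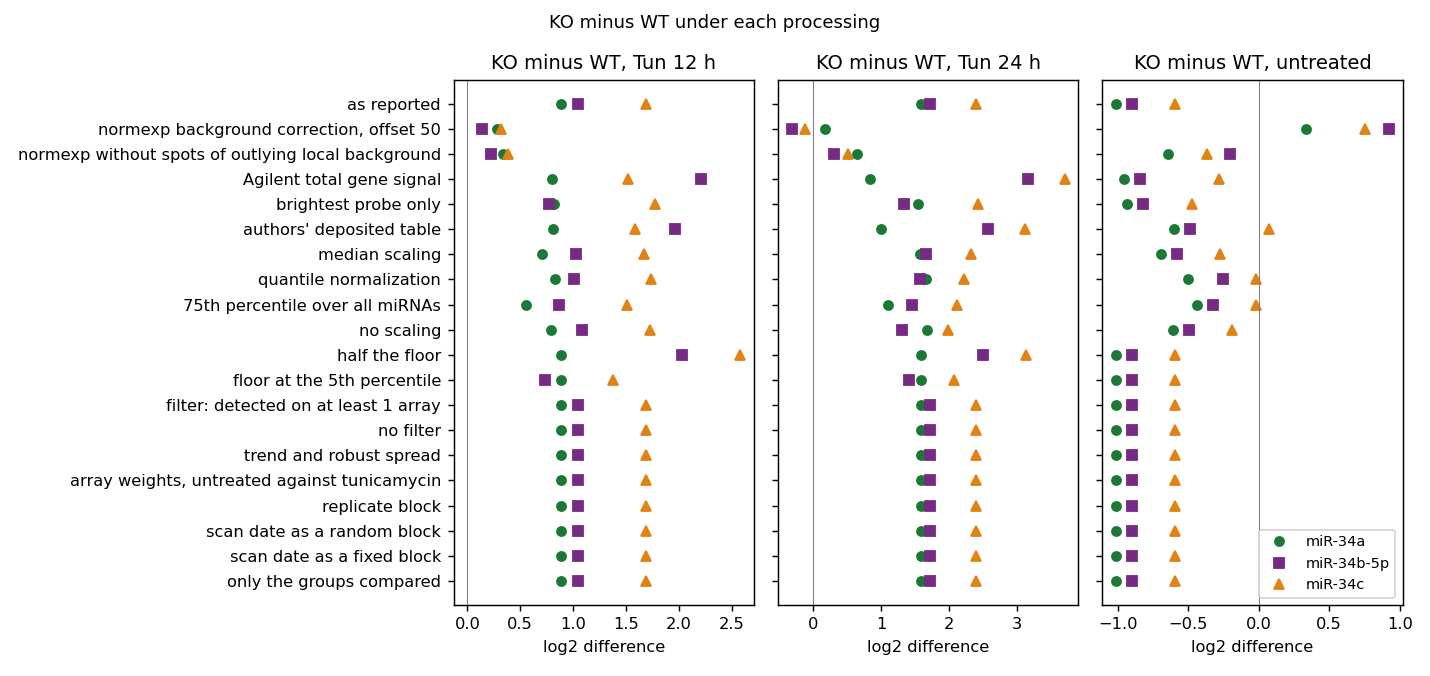
Log2 difference of KO minus WT (horizontal axes) for each member under each processing setting (rows), at 12 h, at 24 h and in untreated cells, with the values as reported in the top row. Points lie right of 0 in the tunicamycin panels under every setting shown except normexp at 24 h, where miR-34b-5p and miR-34c are at -0.32 and -0.13, and mostly left of 0 in untreated cells, where normexp puts all 3 right of it. Under normexp at an offset of 50 the median of all tested miRNAs was -0.46 at 24 h and 0.67 in untreated cells.

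The difference between the KO and WT responses to tunicamycin combines these shifts and was known beforehand. At 12 h it was 1.90 ± 0.59 for miR-34a, 1.95 ± 0.39 for miR-34b-5p and 2.29 ± 0.28 for miR-34c, where 22.8% of all tested miRNAs were called around a median of 0.48. At 24 h it was 2.60 ± 0.59, 2.62 ± 0.39 and 2.98 ± 0.28, where 8.28% were called around a median of 0.34. For miR-34b-5p and miR-34c these values stop at the floor in WT. They share arrays with all comparisons above. With normexp at an offset of 50 they turned to -0.056, -0.78 and -0.44 at 12 h and to -0.17, -1.24 and -0.88 at 24 h. The median of all tested miRNAs turned too, to -0.73 at 12 h and -1.07 at 24 h. Without spots of outlying local background the members were at 0.98, 0.43 and 0.75 at 12 h and 1.28, 0.52 and 0.88 at 24 h. The medians of all tested miRNAs were then 0.28 and 0.27.

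**Figure D4:**
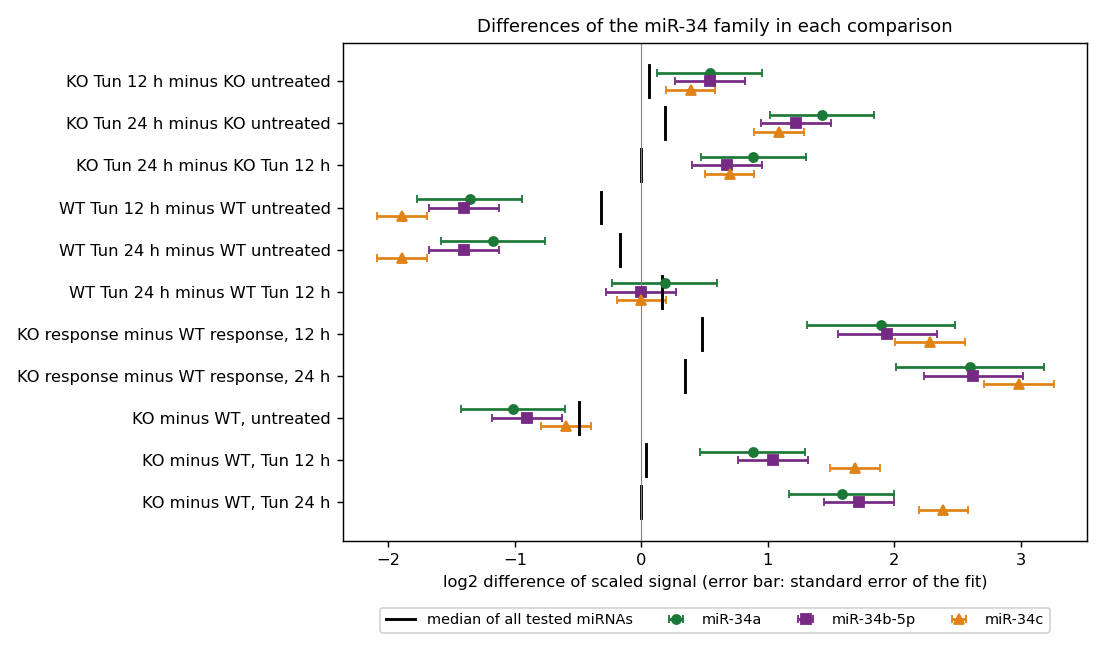
Log2 difference of scaled signal (horizontal axis) of miR-34a, miR-34b-5p and miR-34c in each of the 11 comparisons (rows), with the standard error of the fit as bars and the median of all 145 tested miRNAs as a black line. Members lie right of the median in the KO responses and in KO minus WT under tunicamycin, and left of it in the WT responses and in untreated KO minus WT.

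Agilent's own measure per miRNA, the total gene signal, detected miR-34a on 12, miR-34b-5p on 8 and miR-34c on 9 arrays. It added KO at 24 h, replicate 1, for miR-34b-5p (33.1 units), and for miR-34c an array where the probe means had put it at the floor. On WT at 12 h, replicate 1, miR-34c had a total gene signal of 35.7 units, against 36.6 units on the KO array of the same number, while the summed probe means were 8.24 units there and 55.1 units in KO. For miR-34a at 24 h, replicate 1, the total gene signal was higher in WT (45.3 units) than in KO (26.4 units). The summed probe means there were 26.9 units in WT and 39.8 units in KO. With this measure KO minus WT was 0.80 at 12 h and 0.84 at 24 h for miR-34a, and 1.52 and 3.70 for miR-34c. Only miR-34b-5p was past the threshold at either time.

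Of the family's relatives on the array, miR-34b-3p alone was seen on any array. It was well above background on 2 arrays, KO at 12 h, replicate 2 (32.3 units), and WT at 12 h, replicate 2 (45.4 units). Its scaled signal was 0.077 on the KO and 0.080 on the WT array. Agilent's call added KO at 24 h, replicate 2 (21.7 units), and all 3 arrays had the same scan date. Those levels were nearly equal, on 1 array per genotype and with no test. miR-34c* and the family's seed relatives miR-449a, miR-449b and miR-449c, known from multiciliated epithelia, were well above background on 0 of 12 arrays each.

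Over the 12 arrays each member was most like the others. Among all other tested miRNAs, the highest Pearson correlations of scaled log2 values were those of miR-34a with miR-34b-5p (0.96) and of miR-34b-5p with miR-34c (0.96). That of miR-34a with miR-34c was 0.88. Over the 6 KO arrays, none of them at the floor, the 3 correlations were 0.99, 0.98 and 0.98. They lean on 1 array, KO at 24 h, replicate 2, which lay highest for each member (miR-34a at -0.95, the next KO array at -2.35). Correlations without that array were not computed. The next in likeness was miR-96 for each member, at 0.81, 0.81 and 0.86. It averaged -1.91, -2.07 and -1.63 in KO and -1.94, -2.39 and -2.22 in WT in untreated cells, at 12 h and at 24 h, so its means in the 2 untreated genotypes lay close together. These correlations are descriptions: the arrays share slides, scan dates and the scaling, and 4 arrays at the floor tie for miR-34b-5p and miR-34c.

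Among other miRNAs linked to p53, several were lower in treated WT cells as processed here and none passed in KO cells. The list was chosen with earlier results of these data known, so its adjusted p-values describe the fit and are no independent evidence. Of 11 listed, 10 were on the array and 5 were tested: miR-107, miR-143, miR-15a, miR-16 and miR-194. The last passed the filter only through KO at 12 h. It was at the floor on both arrays of untreated KO, untreated WT, WT at 12 h and KO at 24 h. Its differences among those groups were thus fixed at 0 and it could not fall in WT, yet it counts among the 5. In KO cells 0 of the 5 passed limma's test at 12 h or at 24 h (1 each time at an unadjusted p under 0.05), where 1.38% and 2.76% of all tested miRNAs were called. Their medians there were 0.05 and -0.19, and miR-143 had the smallest adjusted p, 0.172 at 12 h and 0.110 at 24 h. In WT as in KO cells slide and treatment cannot be told apart, and the list is given under 1 processing only. Over all tested miRNAs, WT calls went from 45 at 12 h and 22 at 24 h to 3 and 3 with median scaling. They were 0 and 0 after scaling to the 75th percentile of every miRNA, and 36 and 63 without scaling. As processed here, 4 of 5 were called lower at 12 h, against 30.3% of all tested miRNAs, and 3 of 5 at 24 h, against 15.2%. Among them at 12 h were miR-16, which represses cyclins and BCL2 (-0.94 ± 0.12, adjusted p = 0.00206), miR-107 (-0.80 ± 0.13, adjusted p = 0.00618), miR-143, a marker of mesenchymal cells (-1.19 ± 0.21, adjusted p = 0.00684), and miR-15a (-0.82 ± 0.23, adjusted p = 0.0330).

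In KO minus WT under tunicamycin 0 of these 5 passed limma's test at either time (1 each time at an unadjusted p under 0.05), with medians of 0.31 at 12 h and -0.18 at 24 h. In untreated cells 2 of 5 were lower in KO, miR-16 at -0.78 ± 0.12 (adjusted p = 0.00459) and miR-107 at -0.59 ± 0.13 (adjusted p = 0.0187), against 25.5% of all tested miRNAs called lower. In the difference between the KO and WT responses at 12 h, 2 of 5 were higher, miR-16 at 0.99 ± 0.17 (adjusted p = 0.00917) and miR-107 at 0.90 ± 0.19 (adjusted p = 0.0181), against 20.7% called higher, and at 24 h 0 of 5 passed (2 at an unadjusted p under 0.05). The adjusted p-values of the list describe the fit here too. Whether the list and the family differ was not tested.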

How the data were processed

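Total RNA of 12 fibroblast cultures was labelled with Cy3 and hybridised to 1 array each. Per the file headers, the authors' spot values are intensity in arbitrary units from Agilent Feature Extraction 10.7.1.1 (version from the submitters' processing notes): the processed signal is background-subtracted and not scaled between arrays, and the total gene signal is 0.1 where a miRNA was not detected. Other columns deposited by the authors hold 0 or 1 flags. The authors' deposited value table holds log2 values: all 1849 matched the log2 total gene signal within 0.001, so they are neither scaled nor centred, and undetected miRNAs are left blank. Column medians ran from 5.44 to 6.90.

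Outlier spots and controls were left out, and probe means summed per miRNA. The floor was set, from scaled signals well above background, at their 1st percentile per array, taking the median array. A probe counted as well above background with at least 50 percent of its spots so marked, a miRNA with any probe. Tested were the 145 mouse miRNAs so called on each array of 1 group or more. The test was limma 3.58.1 in R 4.3.3 (lmFit with a mean for each of 6 groups, eBayes, 6 residual degrees of freedom and 1.02 prior ones), with Benjamini-Hochberg adjustment over the 145 and a threshold of 0.05. The spread was taken as equal in all groups, but the pooled SD was 0.51 to 1.22 in the tunicamycin groups, against 0.13 and 0.15 in untreated KO and WT. For miR-34b-5p and miR-34c the treated WT groups, set to the floor, had an SD of 0, which lowers every standard error of these members. Precision is limited by having 2 arrays a group.

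The members, the lists of p53-linked and marker miRNAs and the tests were chosen with earlier results of these data known. The 5 comparisons planned as tests of the members are arithmetic of the 6 known ones, so no p of a member is given. Named were the members, other strands and seed relatives on the array, up to 4 p53-linked miRNAs with the smallest p, and the 3 tested miRNAs most correlated with each member. Alternatives covered background correction, measure, deposited table, scaling, floor, filter, spread, blocks by replicate number and scan date (statmod 1.5.0), and each array left out in turn. The mean spot signal was not used here, so normexp ran on the median spot signal. Same-numbered arrays of different groups correlated at -0.54 to 0.95 in their deviations over 15 pairs, 8 of them at or below 0.1. Those 8 all set untreated against tunicamycin arrays, across slides, where the numbers were not taken to pair arrays. On 1 slide, where the same number means the same scan date, the 7 pairs correlated at 0.68 to 0.95, so KO minus WT is also given within scan dates and with scan date as a block.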

Additional observations from a re-analysis of the deposited data

Results flagged for a closer look

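All 3 members drew attention for moving opposite ways in the 2 genotypes after scaling: every KO tunicamycin array lay above the mean of untreated KO, and every WT tunicamycin array lay below the mean of untreated WT. At 12 h the KO response exceeded the WT response by 1.90 for miR-34a, 1.95 for miR-34b-5p and 2.29 for miR-34c. At 24 h it was 2.60 for miR-34a, 2.62 for miR-34b-5p and 2.98 for miR-34c. Without scaling, KO at 24 h, replicate 1, lay below the untreated KO array of its number (-1.01, -1.03 and -1.09), as did KO at 12 h, replicate 2 (-0.38, -0.32 and -0.52). With normexp at an offset of 50 the response difference of all 3 members turned at both times. The median of all tested miRNAs turned too, to -0.73 at 12 h and -1.07 at 24 h. Without spots of outlying local background the median response difference over the members was 0.75 at 12 h and 0.88 at 24 h. The difference was not tested, because these comparisons were known when the family was chosen. The 24 h values rest in part on KO at 24 h, replicate 2: their median over the members was 2.13 without it and 3.30 without replicate 1.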

How the results depend on the processing

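Values here are medians of the log2 difference over the 3 members, or counts of members called. Normexp with an offset of 50 changed most. It gave -0.26 for WT at 12 h and 0.66 for WT at 24 h (miR-34a 0.35, miR-34b-5p 0.82, miR-34c 0.66), and -0.22 for KO at 24 h (miR-34b-5p -0.42, miR-34c -0.22). At 12 h in KO miR-34a was -0.49, miR-34b-5p -0.87 and miR-34c -0.69. The KO minus WT response was then -0.44 at 12 h (miR-34a -0.056, miR-34b-5p -0.78, miR-34c -0.44) and -0.88 at 24 h (miR-34a -0.17, miR-34b-5p -1.24, miR-34c -0.88). Untreated KO minus WT was 0.76 (miR-34a 0.34, miR-34b-5p 0.92, miR-34c 0.76). KO minus WT under tunicamycin had 0 called at 12 h and 0 at 24 h (miR-34b-5p -0.32, miR-34c -0.13). Under this setting the medians of all tested miRNAs were 0.70 for WT at 24 h and -0.42 for KO at 24 h. For the response differences they were -0.73 and -1.07, and for untreated KO minus WT 0.67. Some spots had extreme local background, up to 172397 units on untreated KO replicate 1. Without them, an alternative chosen after seeing the data, normexp gave -0.32 for WT at 12 h, 0.022 for WT at 24 h (miR-34b-5p 0.19, miR-34c 0.022), 0.90 for KO at 24 h, 0.75 and 0.88 for the response difference at 12 h and 24 h, -0.37 untreated, and 0 and 0 called. The total gene signal gave -2.11 for WT at 24 h, 3.98 for the 24 h response difference, and 1 and 1 called at 12 h and 24 h. The brighter probe alone gave -1.0 for WT at 24 h and 1 called at 12 h. The authors' deposited table gave -2.15 for WT and 0.40 for KO at 24 h, 1.52 and 3.04 for the response differences, -0.49 untreated (miR-34c 0.070) and 1 called at 12 h.

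Among scalings, the median gave response differences of 1.61 and 2.26 and -0.58 untreated. Quantile normalization gave 0.50 for KO at 24 h, 1.33 and 2.16, -0.25 untreated, and 0 and 0 called. The 75th percentile of every miRNA gave 0.36, 1.19 and 1.77, -0.32 untreated, and 0 and 0 called. No scaling gave 0.083 for KO at 24 h (miR-34c -0.053), -1.72 and -2.00 for WT at 12 h and 24 h, 1.58 and 2.17, -0.50 untreated, and 0 and 0 called. The floor divided by 2 gave -2.39 and -2.17 for WT and 2.93 and 3.39 for the response differences. At 12 h 1 member was called with the floor at the 5th percentile, with the filter at 1 array, with no filter (also 1 at 24 h), with array weights and with scan date as a fixed block, and 0 at 24 h from only the groups compared. The replicate number as a block called 2 at 12 h and 2 at 24 h, where miR-34a was lost, and changed no other call of a member. The numbers pair arrays within a slide, through the scan date, and not across slides. Scan date as a random block called 2 and 3. As a fixed block it could not be fitted for tunicamycin against untreated cells.

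Leaving out each array in turn, the median ran from 0.73 (without KO 24 h replicate 2) to 1.72 (without replicate 1) for KO at 24 h, from -1.58 to -1.36 for WT at 12 h, from -1.43 to -1.36 for WT at 24 h, from 1.85 to 2.13 and from 2.13 to 3.30 for the response differences, and from -0.94 to -0.86 untreated. Calls ran from 0 to 2 for KO at 12 h, from 1 to 3 for KO minus WT at 12 h and at 24 h, from 0 to 3 for 24 h against 12 h in KO and were 0 throughout in WT. Signal over background limits miR-34b-5p and miR-34c in treated WT cells.

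Over all tested miRNAs, KO minus WT had 36 called at 12 h (21 higher, 15 lower) and 22 at 24 h (11 higher, 11 lower). Alternatives ranged from 0 to 42 and from 0 to 26. Median scaling gave 20 (9 higher) and 5 (2 higher), no scaling 15 (11 higher) and 6 (4 higher). The other counts ranged over alternatives from 0 to 18 against 2 for KO at 12 h, from 0 to 55 against 4 for KO at 24 h (55 lower without scaling), from 0 to 51 against 45 for WT at 12 h, from 0 to 63 against 22 for WT at 24 h, from 0 to 90 against 47 untreated (14 higher and 12 lower without scaling, against 10 and 37), and from 0 to 47 against 33 and from 0 to 23 against 12 for the response differences. These gave 9 higher of 13 at 12 h and 8 higher of 15 at 24 h without scaling, against 30 of 33 and 11 of 12. The cause of these changes was not tested.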
